A study of Sus scrofa with 6 samples.

Results

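PPP1R9A encodes neurabin, and on pig chromosome 9 it lies beside PEG10 and SGCE, a pair of genes with a shared imprinted promoter. Its CpGs were taken from the deposited tables as every CpG whose gene column names PPP1R9A outside intergenic sequence, or whose promoter column names it. This gave 2182 of the 14091 CpGs with a read, or 15.5% of all CpGs in the tables. Of the 2182 CpGs, 2001 were annotated as intronic, 57 as exonic, 61 as 5'UTR, 42 as 3'UTR, 16 as upstream and 5 as intergenic but within the promoter column. On the build Sscrofa11.1, the RefSeq gene runs from 74635285 to 74944050 on the plus strand of chromosome 9. It is 308.8 kb long and begins 148.3 kb past the end of PEG10. Its last 405 bp overlap PON1, so a CpG there belongs to both genes. The deposited tables cover 24 RefSeq genes within 2.1 Mb, from 73250031 to 75349903.

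Whole-genome bisulfite sequencing, in which unmethylated cytosines are read as T and methylated ones as C, was done on DNA of whole pig embryos. All embryos were a cross of Landrace, Yorkshire and Duroc at embryonic day 21. The controls were 3 untreated embryos. The 3 parthenotes came from oocytes activated by electric pulses and grew in surrogate gilts. A parthenote has no paternal genome, so all its alleles are maternal. The labels do not say which embryos shared a litter or dam, and p-values therefore measure the spread between these embryos. A level is the percentage of reads with C among reads with C or T, with both strands of a CpG summed. The tables held 380163 to 406443 such reads per embryo, of which 56191 to 61178 lay in PPP1R9A. The median CpG of the gene had 27 to 29 reads. Cells of all tissues were pooled within an embryo, so a level is an average over cell types. RNA was not analysed here.

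Neurabin is a scaffold protein of neurons that binds actin filaments and holds protein phosphatase 1 at synapses and dendritic spines. In some mouse and human tissues PPP1R9A is expressed mainly from the maternal allele. In an imprinted cluster the parental alleles carry different methylation at a control region, which need not lie at every gene of the cluster. Levels at PPP1R9A alone therefore do not show which allele is expressed. PEG10, a gene derived from a retrotransposon, and SGCE, which encodes epsilon-sarcoglycan, are expressed from the paternal allele, and their common promoter is methylated on the maternal allele. Such a region is expected at intermediate methylation in embryos with both parents and near full methylation in parthenotes.

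The start of PPP1R9A was almost free of methylation in all 6 embryos, in a CpG-dense stretch with methylated sequence on both sides. The stretch, defined after the levels were seen as consecutive CpGs under 20% in both groups, held 119 CpGs over 1474 bp from 74635188 to 74636661. Relative to the annotated gene start it ran from -97 to 1376 bp, with 80.7 CpGs per kb. Its level was 1.61%, 0.76% and 0.83% in controls 1 to 3 and 0.86%, 0.58% and 1.34% in parthenotes 1 to 3. The means were 1.07% ± 0.47 (SD, n = 3) in controls against 0.92% ± 0.38 (SD, n = 3) in parthenotes, and the groups overlapped. Because low levels chose the stretch, no test is given for it. Reads were sparse there, at 655 to 898 per embryo, and the median CpG had only 4 to 7.

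Both flanks of the start rose to high methylation within a short distance, at the same CpGs in the summed reads of either group. The nearest CpG at or above 80% before the stretch lay 191 bp away, at 74634997, with 83.0% in controls and 85.0% in parthenotes from summed reads. The nearest one after it lay 566 bp away, at 74637227, with 88.1% in controls and 92.0% in parthenotes. Between the stretch and that CpG, the 8 CpGs from 1401 to 1752 bp past the gene start were at intermediate levels. They stood at 60.2%, 38.1% and 39.2% in the controls and at 46.2%, 49.2% and 50.0% in the parthenotes. Control 1 was highest and the other 2 controls lowest, so the parthenotes lay inside the control range. The means were 45.8% ± 12.4 (SD, n = 3) and 48.5% ± 2.02 (SD, n = 3), described without a test because the levels of both groups set the limits of these CpGs.

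**Figure D1:**
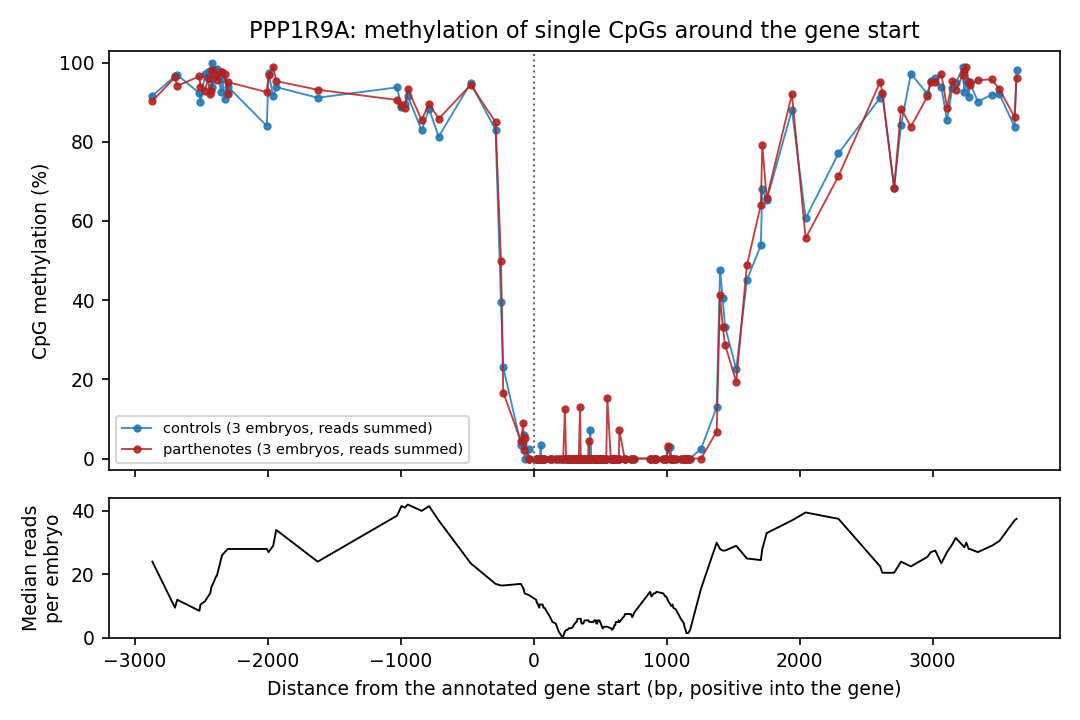
Methylation of single CpGs (%, reads of the 3 embryos of a group summed) against distance from the annotated start of PPP1R9A (bp), controls in blue and parthenotes in red, with the median reads per embryo and CpG in the lower panel. Both groups fall from above 80% to near 0 across the start and first reach 80% again at 1942 bp inside the gene, and reads are fewest in the low stretch.

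The promoter annotated for PPP1R9A stood at about 41% of summed reads in both groups. It held 107 CpGs, with 848 to 1133 reads per embryo. Its level was 39.1%, 46.5% and 38.4% in the controls and 38.3%, 42.3% and 41.0% in the parthenotes. The controls spanned the whole range of the parthenotes except the lowest parthenote, which lay just below. The means were 41.3% ± 4.48 (SD, n = 3) and 40.5% ± 2.04 (SD, n = 3), a difference of -0.76 percentage points. The adjusted p was 0.968 by the quasi-likelihood test of edgeR over the region sets of all genes, with Benjamini-Hochberg adjustment. Of the 70 region sets tested, 7.14% were called, and 0 of the 5 sets of PPP1R9A were among them. These 5 sets also gave 0 calls with limma and with DESeq2, and 0 had an unadjusted p under 0.05.

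The promoter level near 41% was an average over a methylated piece and an almost unmethylated one. The 15 promoter CpGs before the unmethylated stretch, from -1996 to -230 bp relative to the gene start, were at 83.8%, 87.5% and 83.9% in the controls. They were at 85.1%, 89.7% and 87.6% in the parthenotes, from 436 to 517 reads per embryo. The means of this upstream piece were 85.1% ± 2.08 (SD, n = 3) and 87.5% ± 2.32 (SD, n = 3). The other 92 promoter CpGs lay inside the unmethylated stretch. They were at 0.96%, 0.75% and 0.38% in the controls and 0.33%, 0.70% and 1.79% in the parthenotes. Their means were 0.70% ± 0.29 (SD, n = 3) and 0.94% ± 0.76 (SD, n = 3). Neither piece was tested, since low levels set the border between them. CpG density differed between the pieces, at 8.49 per kb upstream and 117 per kb at the start. The upstream piece held 15 of the 107 promoter CpGs but 436 to 517 of the 848 to 1133 promoter reads per embryo. Averaged over CpGs without weighting by reads, the whole promoter was at 12.7% in controls and 12.5% in parthenotes.

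The set's level therefore moved with where the promoter was drawn, and in both groups alike. When drawn from 1000 bp before to 500 bp after the gene start, it was 35.6% ± 7.42 (SD, n = 3) in controls against 35.7% ± 6.58 (SD, n = 3) in parthenotes over 77 CpGs. When drawn from 500 bp before to 250 bp after, it was 18.4% ± 6.27 (SD, n = 3) and 17.1% ± 0.83 (SD, n = 3) over 28 CpGs. The promoter difference was under the SD of the controls in each definition. From 500 bp before to 250 bp after, it was -1.36 points, a larger size than the parthenote SD of 0.83. With the promoter as deposited, the difference changed sign without control 2, to 1.82 points, and without parthenote 1, to 0.35 points. With CpGs of at least 10 reads in every embryo only, it was 5.36 points, which was not called. Without CpGs that carry a sign of a sequence variant (defined with the single CpGs) it was 1.04 points, also not called. In the unmethylated stretch that sign always stood for a strand without a call. There the omission removed CpGs for missing calls and not for a variant base.

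RefSeq lists 14 transcripts of PPP1R9A, and the promoter column names 4 start sites among them. The CpGs credited to the 4 starts form neighbouring pieces that do not overlap. Relative to the gene start, the pieces run from -1996 to -38, 17 to 433, 450 to 508 and 513 to 685 bp. Their levels are therefore not those of promoters of like extent. The piece of the most upstream start, shared by 10 transcripts, took in the methylated flank. Its 21 CpGs were at 70.3% in controls and 75.5% in parthenotes. The pieces of the other 3 starts lay in the unmethylated stretch, with 0.23% against 0.57% over 50 CpGs, 0% against 0% over 13 CpGs, and 0% against 1.24% over 23 CpGs. For the 13 CpGs the reads numbered only 41 to 82 per embryo, and for the 23 CpGs 25 to 151.

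The 5'UTR CpGs lay inside the same unmethylated stretch and had the lowest level of any region set of the gene. Of 361 to 550 reads per embryo over 61 CpGs, 1, 2 and 0 reads were methylated in the controls and 1, 0 and 2 in the parthenotes. The means were 0.25% ± 0.26 (SD, n = 3) and 0.21% ± 0.19 (SD, n = 3), with an adjusted p of 0.985 by edgeR. Where no read was methylated, a count of 0 allows a level of up to 0.640% in control 3 and 0.651% in parthenote 2. These limits cover counting error only, since a read that spans several CpGs counts at each and molecules were not tagged. No difference between groups was detectable at this depth.

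The shared promoter of the neighbouring imprinted genes went another way in the same libraries. Over the 151 promoter CpGs of PEG10 and SGCE, the level was 43.7%, 49.9% and 43.9% in the controls and 83.7%, 87.6% and 93.4% in the parthenotes. All parthenotes were far above all controls. The PPP1R9A promoter minus those promoters was -4.64, -3.41 and -5.50 points in the controls and -45.4, -45.3 and -52.5 points in the parthenotes. The group difference at PPP1R9A minus that at PEG10 and SGCE was thus -43.2 points. The exact permutation test, 2-sided, gave p = 0.1, the smallest p that 3 against 3 embryos allow. The group difference was 42.4 points at PEG10 and SGCE and -0.76 points at PPP1R9A. Since PEG10 and SGCE were taken as known imprinted genes, their choice largely fixed this separation. The test therefore says nothing about PPP1R9A by itself. In controls the averages of the promoter sets, weighted by reads, were close. At PPP1R9A, however, the average came from a methylated and an unmethylated piece.

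**Figure D2:**
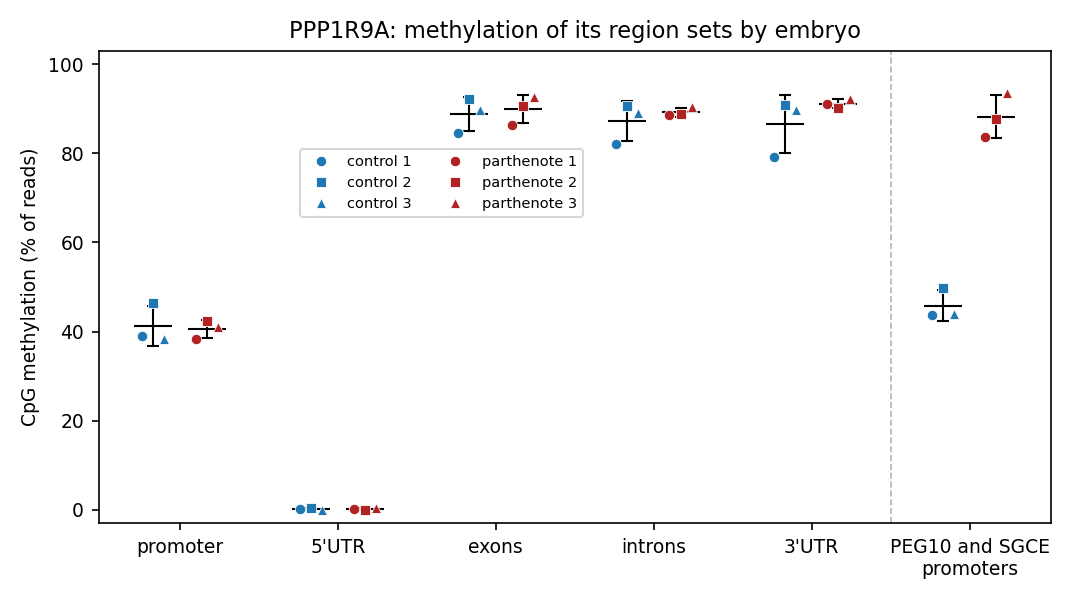
Methylation (% of reads) of the promoter, 5'UTR, exons, introns and 3'UTR of PPP1R9A in each embryo, and of the PEG10 and SGCE promoters at the right for comparison. Points are embryos, and long bars with whiskers are the group mean and SD of 3 embryos. At PPP1R9A the groups overlap in every set, while the PEG10 and SGCE promoters are at 43.7 to 49.9% in controls and 83.7 to 93.4% in parthenotes.

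The body of PPP1R9A was highly methylated in both groups, and control 1 was the lowest embryo nearly throughout. The exons, 57 CpGs with 1557 to 1716 reads per embryo, were at 84.6%, 92.1% and 89.8% in the controls and 86.4%, 90.7% and 92.7% in the parthenotes. Their means were 88.8% ± 3.83 (SD, n = 3) and 89.9% ± 3.2 (SD, n = 3), with an adjusted p of 0.901 by edgeR. The introns, 2001 CpGs with 52509 to 57095 reads per embryo, were at 82.1%, 90.6% and 89.0% in the controls. They were at 88.5%, 88.8% and 90.4% in the parthenotes, all within the control range. The intron means were 87.2% ± 4.5 (SD, n = 3) and 89.2% ± 1.02 (SD, n = 3), a difference of 2.01 points with an adjusted p of 0.901 by edgeR.

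The 3'UTR had the widest gap between the group means among the 5 sets, and that gap moved with single embryos and CpGs. Its 42 CpGs were at 79.1%, 90.8% and 89.7% in the controls and 91.0%, 90.2% and 92.1% in the parthenotes. Only control 1 stood apart from the other 5 embryos. The means were 86.5% ± 6.46 (SD, n = 3) and 91.1% ± 0.97 (SD, n = 3), a difference of 4.57 points with an adjusted p of 0.841 by edgeR. Without control 1 the 3'UTR difference was 0.86 points, without control 2 it was 6.71 points, and without variant-sign CpGs it was 2.84 points. Without control 1 the difference was -0.55 points in the introns and -1.05 points in the exons. The exon difference also changed sign, to -0.31 points, without parthenote 3.

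Control 1 was low over the whole interval and not at PPP1R9A alone. Its mean over all tested CpGs of the tables was 75.2%, against 83.2% to 85.6% in the other 5 embryos. Over the 1827 tested CpGs of PPP1R9A the embryo means were 82.4%, 90.4% and 88.8% in the controls and 88.5%, 89.0% and 90.4% in the parthenotes. The group means were 87.2% ± 4.23 (SD, n = 3) and 89.3% ± 1.00 (SD, n = 3), and the exact permutation test, 2-sided, gave p = 0.7, where the smallest possible with 3 against 3 is 0.1. Without control 1 this difference of 2.07 points became -0.32 points. At the unmethylated start, by contrast, control 1 had the highest level of the 6 embryos over the whole stretch, 1.61%. That level rested partly on the last CpG, 74636661, at 28.6% of 21 reads in control 1. Over the 92 promoter CpGs of the stretch, parthenote 3 was highest, at 1.79% against 0.96% in control 1. The share of unconverted cytosines outside CpGs was not analysed here.

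Intron by intron, the levels stayed within a narrow band past the first 4 kb of the gene. There 14 intron stretches could be tested, with control means of 83.4% to 93.4% and parthenote means of 85.0% to 93.3%. Differences ran from -0.41 to 5.55 points, 12 of 14 were higher in parthenotes, and control 1 was the lowest embryo in 14 of 14. The longest, 164.3 kb with 1129 CpGs from 74639739 to 74804065, was at 88.3% ± 4.32 (SD, n = 3) in controls against 90.4% ± 0.87 (SD, n = 3) in parthenotes. The next in length, 27.6 kb, 26.6 kb and 19.8 kb, were at 87.2%, 89.0% and 86.7% in controls and 90.5%, 90.9% and 88.5% in parthenotes. The intronic CpGs just after the start, from 74636391 to 74637577, include part of the unmethylated stretch and its edge and stood at 47.2% ± 8.86 (SD, n = 3) and 47.6% ± 1.86 (SD, n = 3).

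The exon stretches covered a wider range of levels than the intron stretches past the first 4 kb. Nearer the start, an intron stretch of 37 CpGs from 74635472 was at 0.20% in controls and 1.01% in parthenotes. The first stretch annotated as exonic, 22 CpGs from 74637891 to 74638917, was at 92.0% ± 1.83 (SD, n = 3) in controls against 92.9% ± 1.58 (SD, n = 3) in parthenotes. Over the 6 exon stretches tested, control means ran from 74.6% to 92.2% and parthenote means from 81.5% to 96.7%. The other 5 exon stretches held only 3 to 5 CpGs each. Of 39 annotated stretches of the gene, 27 met the limits (3 CpGs, and 30 reads in each embryo) and 0 were called by edgeR. Over all genes 1.99% of 201 stretches were called. With limma and DESeq2 the count for PPP1R9A was also 0, and 0 of the 27 had an unadjusted p under 0.05.

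The stretches with the smallest unadjusted p were near the end of the gene. They were an exon of 4 CpGs from 74936353, at 92.2% ± 5.66 (SD, n = 3) and 96.7% ± 2.80 (SD, n = 3), the 3'UTR, and an intron of 30 CpGs from 74924940, at 85.2% ± 6.84 (SD, n = 3) and 90.0% ± 1.52 (SD, n = 3). Each had an adjusted p of 0.983 by edgeR. In each, control 1 was the lowest embryo.

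Along the gene in bins of 10 kb, the profile was flat after the start. The first of 31 bins was at 67.4% in controls and 67.0% in parthenotes, with 20.1 CpGs per kb. The other 30 ran from 78.2% to 92.3% in controls and from 82.0% to 93.8% in parthenotes, with 3.6 to 11.9 CpGs per kb. Parthenote means were higher in 30 of 31 bins, with differences of -0.43 to 6.0 points over all 31, and control 1 was the lowest embryo in 30 of 31. Without control 1, parthenote means were higher in 11 of 31 bins, with differences of -2.54 to 3.54 points. No bin of the gene reached the size of the difference at the PEG10 and SGCE promoters.

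**Figure D3:**
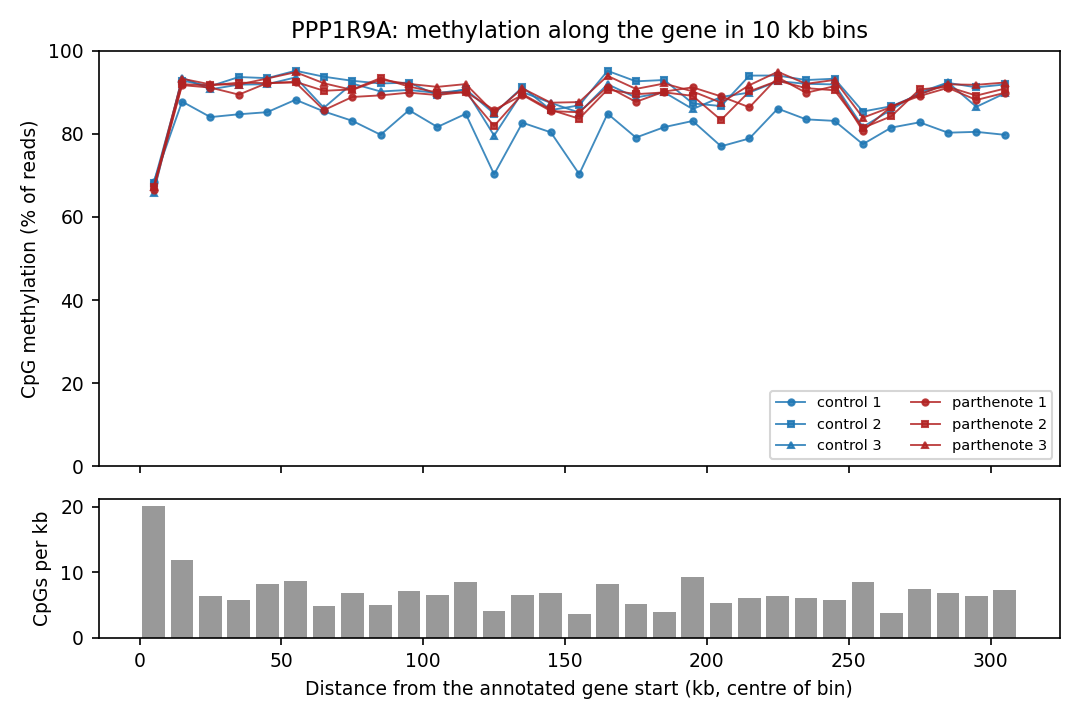
Methylation (% of reads) of PPP1R9A in bins of 10 kb by distance from the gene start (kb), 1 line per embryo with controls in blue and parthenotes in red, and CpGs per kb below. Control 1 runs lowest in 30 of 31 bins, and only the first bin, which holds the unmethylated start, lies below 70% in every embryo.

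PPP1R9A introns were more methylated in every embryo than the introns of the other genes pooled, though not than those of each gene. The 5486 intronic CpGs of the other genes averaged 80.01% ± 5.80 (SD, n = 3) in controls against 83.8% ± 1.06 (SD, n = 3) in parthenotes. PPP1R9A lay above them by 8.66, 6.13 and 6.86 points in the controls and by 5.22, 5.60 and 5.33 points in the parthenotes. The mean gap was 6.30 ± 1.30 points (SD, n = 6), in 6 of 6 embryos, and the exact sign-flip permutation test, 2-sided, gave p = 0.031, the smallest it can give. That p measures the spread between embryos and not between genes, and PPP1R9A is 1 gene. The gap in parthenotes minus that in controls was -1.83 points, with all controls above all parthenotes and exact permutation p = 0.1. With the introns of PEG10 and SGCE left out of the other genes, a choice made after seeing the data, the mean gap was 5.50 points in 6 of 6 embryos. The difference between groups was then -1.27 points, the groups overlapped, and the exact permutation p was 0.3. Single genes reached the level of PPP1R9A. The introns of CASD1 were higher in control 1 (85.6% against 82.1%) and parthenote 1 (90.2% against 88.5%). Those of PDK4 were higher in control 2 (90.9% against 90.6%) and parthenote 3 (91.1% against 90.4%).

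Among CpGs with at least 10 reads in every embryo, those of PPP1R9A were also more often near full methylation than those elsewhere. Of its 1827 tested CpGs, 85.4% stood at or above 80% in controls and 89.5% in parthenotes. For the other 10532 tested CpGs the shares were 69.2% and 78.2%. CpGs from 20 to 80% made up 13.4% and 9.47% of PPP1R9A, against 27.0% and 18.1% elsewhere. The median CpG of PPP1R9A was at 91.1% in controls and 92.8% in parthenotes. Few CpGs of the sparsely read start met the limit of 10 reads, which raises the shares for PPP1R9A. Among the 1827, 22 were under 20% in controls and 18 in parthenotes. Among all 2182 CpGs of the gene, 125 were under 20% in both groups. The other CpGs also include promoters and intergenic sequence, while those of PPP1R9A are mostly intronic. CpGs of 1 gene share libraries and neighbours, and these shares are a description.

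No window of PPP1R9A showed the pattern of the PEG10 and SGCE promoters. Of 551 fixed 500 bp windows with a CpG of the gene, 285 passed the limits of 3 CpGs and 30 reads. By edgeR 0 of the 285 were called, against 0.314% of 1911 windows over the whole interval, intergenic sequence included. The 6 called windows were neighbours, with starts from 74473500 to 74476000. At an unadjusted p under 0.05 PPP1R9A had 6 windows, or 2.11%, all higher in parthenotes. Over the interval the corresponding shares were 2.46% in either direction and 2.41% higher in parthenotes, so the count for PPP1R9A was not above the background. With limma and DESeq2 the count of called windows was 0. The median window difference was 1.61 points in PPP1R9A and 2.35 points over all windows, and 72.3% of the gene's windows were higher in parthenotes against 78.1% of all.

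Windows at intermediate levels were scarce and stayed intermediate in the parthenotes. In controls 8 windows, or 2.81%, lay from 35 to 65%, compared with 6.44% of all windows. Their control means ran from 44.0% to 63.7% and their parthenote means from 48.7% to 73.5%. None reached 80% or fell to 20% in parthenotes, and 5 of the 8 were at 35 to 65% in both groups. Over the whole interval, 9 of the 123 windows in this class reached 80% in parthenotes. Reaching 80% was thus uncommon in the class, and its absence among 8 windows does not set PPP1R9A apart. Of the 8, 6 held only 3 CpGs, and the lowest adjusted p among them by edgeR was 0.995. Without control 2, 1 window in this class reached 80% in parthenotes, at 74760000, with 63.7% in controls and 87.9% in parthenotes and an adjusted p of 0.343 by edgeR.

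**Figure D4:**
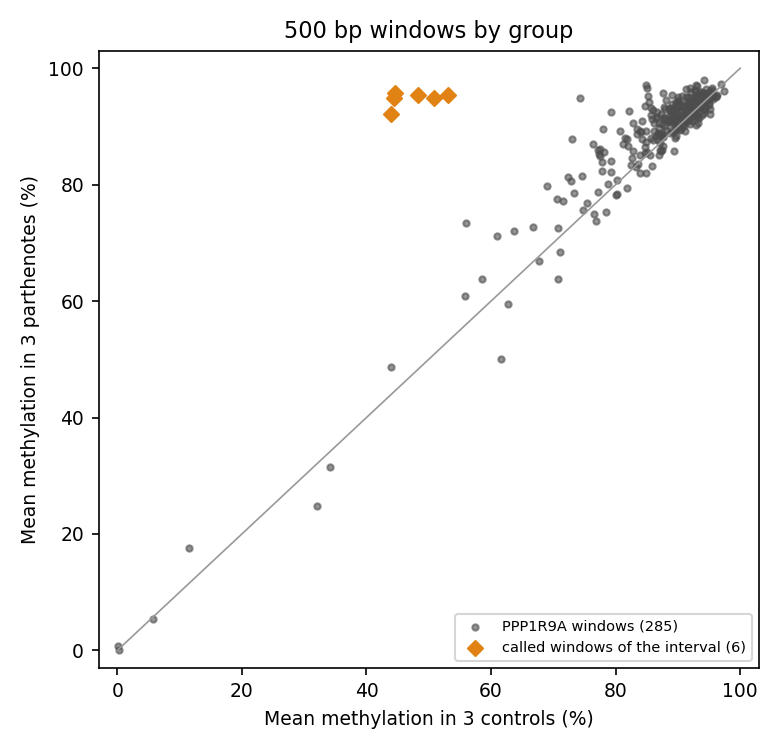
Mean methylation of 500 bp windows in the 3 controls (horizontal axis, %) against the 3 parthenotes (vertical axis, %), with the 285 tested windows of PPP1R9A in grey and the 6 called windows of the interval in orange. The windows of PPP1R9A follow the line of equal levels, with 235 of 285 at or above 80% in both groups, while the called windows stand apart above it.

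The 3 windows with the smallest p were all intronic and none was called. The window at 74830500, 3 CpGs with 42 to 73 reads, was at 85.7%, 72.1% and 65% in the controls and 94.5%, 92.2% and 97.8% in the parthenotes. The groups did not overlap there, with means of 74.3% ± 10.5 (SD, n = 3) and 94.8% ± 2.81 (SD, n = 3) and an adjusted p of 0.188 by edgeR. The window at 74722500, with 7 CpGs, was at 71.1%, 93.3% and 90.6% against 97.1%, 96.3% and 96.2%, and its adjusted p was 0.485 by edgeR. The window at 74759000, with 3 CpGs, was at 66.7%, 95.3% and 92.5% against 93.4%, 97.8% and 100%, and its adjusted p was 0.995 by edgeR. In the latter 2 windows control 1 lay far below the other 5 embryos. Without control 2 those 2 windows were called, with differences of 15.7 points (adjusted p = 0.0195 by edgeR) and 17.5 points (adjusted p = 0.0233 by edgeR). Without control 1 their differences were 4.59 and 3.15 points, in place of 11.5 and 12.2 with all embryos. The 3 windows held 1, 3 and 1 CpGs with the variant sign that is described next. Without such CpGs the difference at 74722500 was 2.91 points (adjusted p = 0.994 by edgeR), and the other 2 windows had too few CpGs left to be tested.

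Single CpGs gave no call either, and those nearest to one carried signs of sequence variants. A C-to-T variant looks like an unmethylated cytosine, but its opposite strand then reads A in place of G. A CpG was given a variant sign where at least 20% of at least 10 opposite-strand reads were A in an embryo, or where a strand had no call. By edgeR 0 of 1827 tested CpGs of PPP1R9A were called, against 0.429% of 12359 over the interval, and limma and DESeq2 also gave 0. At an unadjusted p under 0.05 there were 51, or 2.79%, with 45 higher and 6 lower in parthenotes. The interval had 3.29% in either direction and 2.99% higher. Of the 51 CpGs, 14 (27.5%) had a variant sign, against 70 (3.83%) of all 1827. Of the 253 CpGs of the gene with the sign, tested or not, 59 had A and 194 only a strand without a call. In the unmethylated stretch at the start, 72 of the 119 CpGs had the sign, all for a strand without a call and 0 for A.

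The 3 CpGs with the smallest p showed this in the same embryos. At 74830934, 195.6 kb into the gene, the levels were 92.9%, 40.0% and 35.7% in the controls and 95.5%, 96.4% and 100% in the parthenotes, from 14 to 30 reads. Opposite-strand reads were A at 40.0% in control 2 and 25.9% in control 3, and at 0% in the other 4 embryos. The adjusted p was 0.0620 by edgeR. At 74722512 the levels were 76.2%, 45.5% and 17.4% against 100%, 100% and 88.2%, with opposite-strand A at 45.5% in control 2 and 52.2% in control 3 (adjusted p = 0.0840 by edgeR). At 74775890 they were 100%, 33.3% and 71.4% against 100% in each parthenote, with opposite-strand A at 38.1% in control 2 and 14.3% in control 3 (adjusted p = 0.178 by edgeR). In all 3, the controls that read A were the ones with low methylation. With the authors' totals, which scale the reads by the opposite-strand share of G, the differences were 38.2, 44.3 and 22.2 points in place of 41.1, 49.7 and 31.7. The adjusted p values by edgeR were then 0.0655, 0.154 and 0.575. Without control 1 all 3 were called, with adjusted p values of 0.00681, 0.0259 and 0.0448 by edgeR. Without parthenote 1, 3 other CpGs were called, at 74735479, 74749860 and 74796377, each with a variant sign.

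Among windows of up to 24 CpGs, CpG density did not by itself go with low methylation in PPP1R9A. Of 18 windows with at least 15 CpGs, the 3 at the gene start were under 20% in both groups. These held 23, 71 and 25 CpGs. The other 15, with 15 to 24 CpGs, were all at 89.6% or more in controls and 89.4% or more in parthenotes. Windows with more than 24 CpGs were found only at the start, and there they were low. Among the 15 methylated windows, the one at 74643500, with 23 CpGs, was at 93.9% and 95.9%. The window at 74862000, with 22 CpGs, was at 93.1% ± 3.89 (SD, n = 3) and 96.9% ± 1.15 (SD, n = 3).

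Away from its start the gene had 1 further stretch of low methylation, far inside an intron. Of the 285 windows, 4 were under 20% in both groups, or 1.40%, against 1.78% of all windows. Windows at 74635000, 74635500 and 74636000 lay at the start, with 5.69%, 0.13% and 0.32% in controls and 5.35%, 0.69% and 0.14% in parthenotes. The window at 74891000 lay in an intron and was at 11.3%, 19.4% and 3.95% in the controls and 11.0%, 22.0% and 19.8% in the parthenotes, so the groups overlapped. It contains most of a run of 5 CpGs, each under 20% in both groups, over 284 bp from 74890952 to 74891235, which begins 255.7 kb from the gene start. The run was at 6.74%, 7.59% and 2.88% in the controls and 6.76%, 8.24% and 14.4% in the parthenotes. Its means were 5.74% ± 2.51 (SD, n = 3) and 9.81% ± 4.07 (SD, n = 3), described without a test because low levels chose it. Each embryo had 139 to 208 reads in it, and 0 of the 5 CpGs carried the variant sign described above.

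This intronic dip was narrow, with 17.6 CpGs per kb, fewer than the 80.7 at the start. A CpG at or above 80% lay 366 bp before it, with 91.7% in controls and 94.0% in parthenotes. Another lay 392 bp after it, with 95.9% and 95.8%. In the interval there were 16 such runs of at least 5 low CpGs, 7 with a CpG of a promoter column and 9 without one. PPP1R9A held 2 of the 16, and of its 125 CpGs under 20% in both groups only 1 lay outside these runs.

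**Figure D5:**
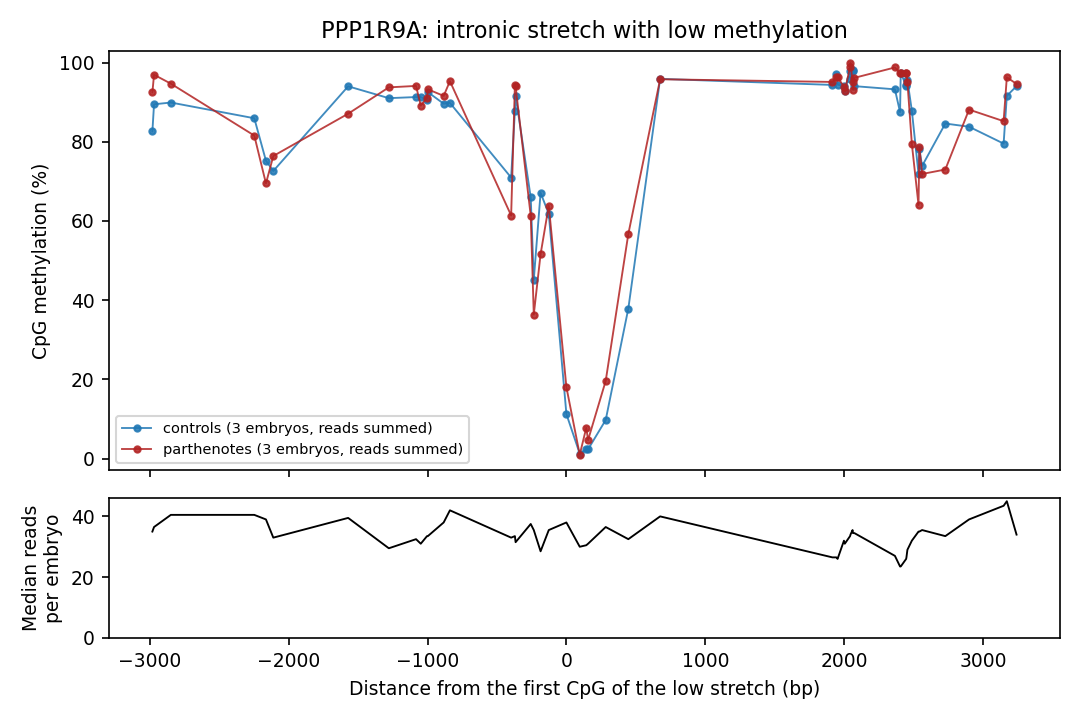
Methylation of single CpGs (%, reads of the 3 embryos of a group summed) against distance from the first CpG of the low intronic stretch of PPP1R9A (bp), controls in blue and parthenotes in red, with the median reads per embryo and CpG below. Both groups fall below 20% over 284 bp, with 91.7% and 94.0% at 366 bp before the stretch and 95.9% and 95.8% at 392 bp after it.

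The genes whose levels were most like those of PPP1R9A differed by region. By the mean absolute difference over the 6 embryos, its promoter set was closest to those of BET1 (3.33 points), PON2 (6.07 points) and PDK4 (8.28 points). Those stood at 38.6%, 37.8% and 47.4% in controls and at 36.6%, 33.3% and 51.0% in parthenotes. Ordered from the highest level, the PPP1R9A promoter was number 12 of 17, by levels that are weighted by reads. Its introns were closest to those of PDK4 (1.32 points), CASD1 (1.63 points) and PON1 (3.43 points), and were number 2 of 15 from the highest, after CASD1. Among 9 genes of the interval with reported imprinting in mouse or human, PPP1R9A included, 2 promoters were called by edgeR, those of PEG10 and SGCE, both higher in parthenotes. The PEG10 promoter was at 41.0% in controls and 74.8% in parthenotes, and the SGCE promoter at 47.9% and 95.4%. The promoters of the other 7 differed by -4.52 to 5.95 points. The median difference was 1.56 points over the 9 and 0.67 points over all 17 promoters, of which these 2 were the ones called.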

How the data were processed

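Bisulfite reads of 6 embryos were analysed, 3 per group. The submitters' processing notes name BSMAP 2.87 and Sscrofa11.1, while trimming, duplicate removal and mapping settings are not given in the sources used here. Per the file headers, the authors deposited for each cytosine the counts of C, of C or T, and of opposite-strand G and G or A. They also deposited an expected count, the C-or-T count multiplied by the share of G on the opposite strand, and the methylation fraction with its confidence bounds. The authors' fraction was not used as a level.

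Levels here are C over C-or-T counts with both strands summed. Single CpGs needed 10 reads in every embryo, and region sets, stretches and 500 bp windows 3 CpGs and 30 reads. A promoter is the promoter column as deposited. Methylated and unmethylated counts were tested with edgeR 4.0.16 (R 4.3.3), each embryo having its own coverage term. The p-values were adjusted over all units of a kind in the interval, with intergenic sequence included for windows and CpGs. A call is an adjusted p under 0.05. The models were tested on simulated data. Single values had exact permutation tests. Alternatives were limma 3.58.1, DESeq2 1.42.0, the expected counts as totals, other limits, omission of CpGs with a variant sign, and omission of each embryo.

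PPP1R9A and the lists were chosen with earlier results of these data known. Named units are called ones, otherwise the 3 CpGs, windows and stretches with the smallest p, low windows, the longest introns and the 3 most alike genes. Runs of low CpGs and the split of the promoter were defined after the levels were seen. Sequences were not used here.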

Additional observations from a re-analysis of the deposited data

How the results depend on the processing

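No region set or stretch of PPP1R9A was called under any alternative run. With the replicate block 4 CpGs were called. The replicate numbers gave same-number correlations of 0.0876, 0.0716 and -0.0894, within the range of different-number pairs, -0.238 to 0.206. The numbers thus showed no pairing, but with 3 embryos per group these values cannot exclude a shared litter or dam. The block changed no other call count. Over the omissions of single embryos, called CpGs ran from 0 to 3 and called windows from 0 to 2. All 8 different CpGs called under some alternative carried a variant sign. Under those omissions the differences ran from -2.23 to 1.82 points in the promoter, -0.16 to 0.095 in the 5'UTR, -1.05 to 2.82 in the exons, -0.55 to 3.67 in the introns, 0.86 to 6.71 in the 3'UTR and -0.32 to 3.66 over the gene. The gap between PPP1R9A introns and other introns ran from 5.83 to 6.51 points, with p = 0.0625 in the exact sign-flip permutation test, the smallest that 5 embryos allow. Windows that were at 35 to 65% in controls and also near full or empty in parthenotes ran from 0 to 1.

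The promoter difference was 5.36 points with CpGs of at least 10 reads only, 1.04 points without variant-sign CpGs and 0.086 points from 1000 bp upstream to 500 bp downstream. The 5'UTR difference was 0.071 points with CpGs of at least 10 reads. Depth limits both, with a median of 3 to 8 reads per promoter CpG. Low windows numbered 2 at 1000 bp and 7 at 250 bp. Windows at intermediate levels in controls numbered 13 with limits of 30 to 70%, 4 without variant-sign CpGs and 5 at 250 bp. With the limits of 30 to 70% in controls and 75% or 25% in parthenotes, 2 windows changed class, at 68.9% against 79.7% and 32.0% against 24.8%. The causes were not tested. Of the values of the comparisons and counts recomputed under an alternative, 12 changed sign and 11 counts moved by over 1.5 times or from 0. Another 6 lost their call, and the other 140 did none of these. The 6 were all the intron gap with 1 embryo omitted. There the exact sign-flip permutation test cannot go below p = 0.0625, so the loss was fixed in advance. For the named CpGs, windows and stretches, 7 values became calls and 91 did not.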
